A study of Rattus norvegicus with 53 samples.

Results

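Cry2 was followed across 51 whole rat eyes, as 1 gene of the 32576 genes in the deposited expression table. It was taken by its position, the row on chromosome 3 with a start at 81344110 on the Rnor_6.0 assembly (identifier ENSRNOG00000007478, minus strand, so this is its transcription start). The eyes came from Heterogeneous Stock (HS) rats, an outbred population bred from inbred founder strains, with 1 eye per rat. There was no treatment group or control group: some of the animals had gone through behavioral tests and nicotine self-administration, and which eyes came from these animals, their sex, their age and the time of day at death were not given per eye in the sources used here. Of 53 eyes, 2 had been removed by the authors after their RNA was compared with the DNA genotypes, and 11 of the 51 had been relabelled in that comparison. The relabelling and the prefixes of the tag numbers were the only divisions of the eyes that the labels gave. The 12 eyes whose tag numbers did not begin with the most common prefix carried several different prefixes and were pooled here.

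CRY2 is a cryptochrome, one of the core repressors of the mammalian circadian clock. With the PERIOD proteins it enters the nucleus and represses the transcription factors CLOCK and BMAL1, which drive the cryptochrome and Period genes through E-boxes in their promoters, so that the loop closes on itself about once a day. Cryptochromes also bind nuclear receptors, including the glucocorticoid receptor, and CRY2 has been linked to DNA damage signalling in mouse cells. In the eye, clocks run in the retina and in other ocular tissues, and the retina passes light to the brain clock. The level of the Cry2 transcript is a single snapshot of each animal.

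The promoter of rat Cry2 is shown because the clock loop described above acts on such a region. The sequence is from RefSeq on the GRCr8 assembly, chr3:98860388-98860687 on the minus strand, and is written 5′ to 3′ along the gene, from 250 bases before the RefSeq start to 50 bases after it. Capitals mark the motifs found on either strand.
Cry2 promoter: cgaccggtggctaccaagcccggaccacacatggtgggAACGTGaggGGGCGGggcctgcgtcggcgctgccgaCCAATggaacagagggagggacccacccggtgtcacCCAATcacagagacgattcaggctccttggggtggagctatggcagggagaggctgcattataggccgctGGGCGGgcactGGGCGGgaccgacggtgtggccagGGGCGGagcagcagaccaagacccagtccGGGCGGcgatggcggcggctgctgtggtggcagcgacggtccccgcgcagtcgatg
The letters of 5 motifs were searched on both strands: the E-box CACGTG, the E-prime box CACGTT, the hexamer AGGTCA that ROR and other nuclear receptors share, the GC box GGGCGG and the CCAAT box CCAAT. The window held 1 E-prime box, on the opposite strand (AACGTG as printed), with 206 bases between it and the start. CACGTT was present in 4.83% of 33469 RefSeq promoters of the same length. The window also held 5 GC boxes, a motif present in 33.1% of the promoters, and 2 CCAAT boxes, present in 37.5%. The E-box (6.42% of promoters) and AGGTCA (16.2%) had no match within these 300 bases. The GC content of the window was 69.3%, above that of 90.9% of the promoters, whose median was 51.7%. None of the motifs overlapped another, and a match of letters is not a measured site of binding.

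Cry2 was readily measured in every eye. Its expected read count was between 1836 and 10440 per eye, with a median of 3211, out of 9109084 to 42146827 counts per eye. All levels below are in CPM, the counts of a gene per 1000000 counts of the eye. The lowest level was 124 CPM, the median 202 CPM and the highest 320 CPM, a range of 2.58-fold, and the mean was 202 ± 43.7 CPM (SD, n = 51). The middle of the distribution was narrow, since the quartiles were 171 and 222 CPM and 31 of the 51 eyes lay within 20% of the median. The next to lowest eye had 125 CPM, and the 2 eyes below the highest had 298 and 289 CPM, so neither end rested on a single eye. Counting error was small beside this spread. The coefficient of variation between eyes was 21.7%, and counting alone would give at most 2.33% in any eye. On the scale of log2(CPM + 1) the mean was 7.63 and the SD 0.32.

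Cry2 was among the more abundant transcripts and varied about as much as genes of its level. Its mean CPM was higher than that of 94.6% of the 13844 genes whose median level reached 1 CPM. On the log2 scale its SD was larger than that of 62% of the 200 genes nearest to it in mean level, whose median SD was 0.28. CPM are not divided by transcript length, so a comparison of levels between genes includes their length.

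The subsets drawn from the labels did not separate Cry2. In the 11 relabelled eyes it had a lowest level of 151, a median of 198 and a highest level of 320 CPM, with a mean of 205 ± 49.8 CPM. In the 40 eyes that kept their label these values were 124, 204 and 298 CPM, with a mean of 201 ± 42.6 CPM. The ranges overlapped, and the difference of the mean log2 levels was 0.03 (permutation p = 0.78; adjusted p = 0.963 over 11 relations). In the 12 eyes of the other tag prefixes the level was 149 to 298 CPM (median 203; mean 206 ± 54.7), against 124 to 320 CPM (median 202; mean 200 ± 40.5) in the 39 eyes of the most common prefix. These ranges overlapped too, with a difference of 0.02 on the log2 scale (permutation p = 0.82; adjusted p = 0.963).

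**Figure D1:**
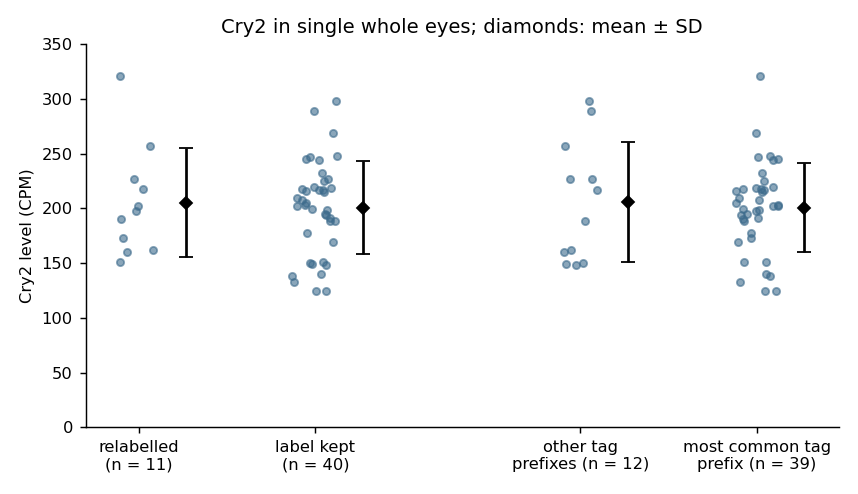
Cry2 level in CPM (vertical axis) in single eyes (points) by the subsets drawn from the labels, with the mean and SD (diamonds and bars). The relabelled eyes averaged 205 CPM against 201 CPM in eyes that kept their label, and the other prefixes 206 CPM against 200 CPM for the most common prefix.

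The level of Cry2 was compared with 9 measures of each library in the same family of 11 relations. The largest relation was with the first expression component, the axis along which the 20190 genes detected in any eye, Cry2 among them, varied most. Its Pearson's r with Cry2 was 0.67 and its Spearman's rho 0.60 (permutation p = 1e-05 for each, the smallest that 100000 permutations can give; adjusted p = 0.00011). With the 2 eyes most extreme on the component left out, r was 0.63. It was 0.89 within the 12 eyes of the other prefixes and 0.58 within the 39 eyes of the most common prefix. This one component held 44.8% of the variance of Cry2, against a median of 14.3% for the kept genes, and Cry2 was above 83.2% of them. The following components added little. The first 5 together held 48.6% of the variance of Cry2 (median gene 52.8%) and the first 20 held 63.6% (median gene 78.8%). Axes unrelated to a gene would hold 2% of its variance with 1 component, 10% with 5 and 40% with 20. Cry2 was thus above most genes in its share on the first axis, and above 16.6% of genes at 20 components.

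In CPM, Cry2 was lower in eyes in which a few genes took more of the counts. The 100 most abundant genes of each eye held 22.5% to 38.7% of its counts, and this share had an r of -0.55 with Cry2 (permutation p = 2e-05; adjusted p = 0.00011; rho = -0.50). With the 2 eyes most extreme in this share left out, r was -0.50, and it was -0.84 in the 12 eyes of the other prefixes and -0.40 in the 39 of the most common one. A larger share of these genes lowers the CPM of every other gene. Median-of-ratios scaling divides each eye by the median ratio of its genes to their means, and with it r was -0.35. With that scaling, and within the 39 eyes, this relation did not pass the adjusted test by Pearson's r. The share of counts from the mitochondrial chromosome, 0.418% to 8.91%, had an r of -0.31 (permutation p = 0.026; adjusted p = 0.0955) and a rho of -0.39 (permutation p = 0.00508; adjusted p = 0.0186). The total count of the eye (r = -0.084; adjusted p = 0.882) and the number of genes above 0 (r = 0.022; adjusted p = 0.963) did not pass the test. The part of these library measures in the level of Cry2 was not tested.

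**Figure D2:**
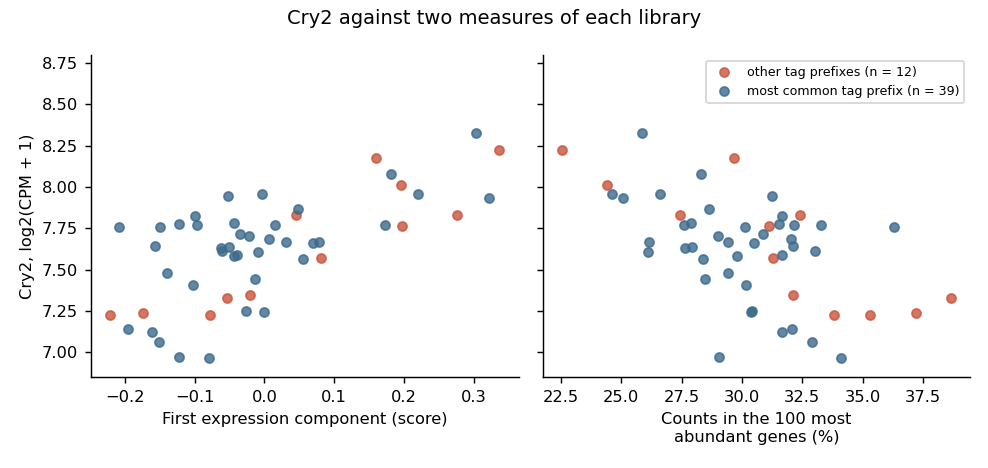
Cry2 on the log2(CPM + 1) scale (vertical axis) against the first expression component and against the percentage of counts in the 100 most abundant genes (horizontal axes), 1 point per eye. Red points are the 12 eyes of the other tag prefixes and blue points the 39 of the most common prefix; r was 0.67 and -0.55 over all 51 eyes.

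A large part of the eye transcriptome varied with Cry2. Each of the 13843 other genes whose median reached 1 CPM was fitted on Cry2 with limma, both on the log2(CPM + 1) scale, and p-values were adjusted over all of them by the Benjamini-Hochberg method. At an adjusted p under 0.05, 3694 genes (26.7%) were higher in eyes with more Cry2 and 1721 (12.4%) were lower, 39.1% in either direction. Pearson's r was between -0.72 and 0.72, with a median of 0.091. With median-of-ratios scaling 2082 genes (15%) were higher and 1989 (14.4%) lower, so the share of calls that were higher was 51.1% of the 29.4% called, against 68.2% in CPM. Of the genes called in CPM, 2080 higher and 1551 lower genes were also called with that scaling, and 0 were called in the opposite direction. Within the 12 eyes of the other prefixes 2671 genes were higher and 849 lower, and within the 39 eyes of the most common prefix 1531 were higher and 592 lower. No gene had a slope that differed between these subsets at an adjusted p under 0.05 in limma (1416 had an unadjusted p under 0.05; smallest adjusted p = 0.285).

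Such breadth was not peculiar to Cry2. At a size of r of at least 0.4 Cry2 had 3761 partner genes, 2795 positive and 966 negative, against 2382 for the median gene, and 71.3% of genes had fewer. When the first expression component was added as a covariate, limma called 0 genes (349 had an unadjusted p under 0.05, and the smallest adjusted p was 0.9998). With 5 components it also called 0 (497 unadjusted; smallest adjusted p = 0.726). With 20 components, 0 genes were higher and 1 was lower (762 unadjusted, 5.5% of the genes tested). The components were computed from these genes and Cry2 itself, so adding them takes out variation that Cry2 shares with the genes. In whole tissue, fewer cells of a type and less RNA per cell cannot be told apart.

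**Figure D3:**
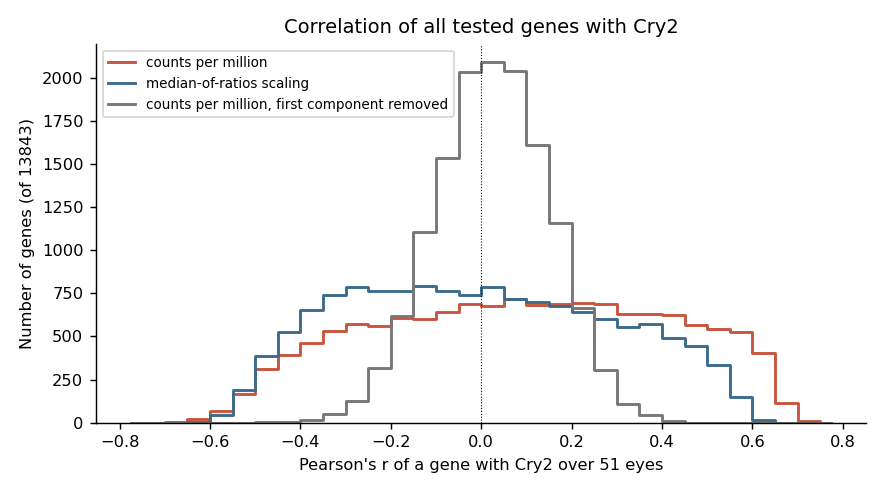
Number of genes (vertical axis) by their Pearson's r with Cry2 over 51 eyes (horizontal axis), for CPM, for median-of-ratios scaling and for CPM after removal of the first component. The median r was 0.091, -0.015 and 0.027, and with the component removed 19 genes had a size of r of at least 0.4, against 3761 in CPM.

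The genes most like Cry2 could be named only in part. The table holds identifiers without symbols, and 785 genes were named by their start position in the study's lists of genes associated with local genotype in these eyes or located in its loci, and 706 of them, besides Cry2, reached a median of 1 CPM. Of these 706 genes, 156 were higher and 58 lower with more Cry2. The highest r of any gene belonged to 2 unnamed genes, ENSRNOG00000017422 on chromosome 3 (0.72; 52.4, 81.6 and 134 CPM as the lowest, median and highest level) and ENSRNOG00000001205 on chromosome 20 (0.72; 833, 1154 and 1683 CPM). The lowest belonged to ENSRNOG00000011135 (-0.72) and ENSRNOG00000016912 (-0.66), both on chromosome 2.

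Among named genes, the most like Cry2 was Farp1, which encodes a guanine exchange factor that acts on the actin cytoskeleton in dendrites and synapses. Farp1 (chromosome 15, start 106434177) had a lowest level of 7.31, a median of 14.4 and a highest level of 31.03 CPM. Its r with Cry2 was 0.65 and its rho 0.67 (permutation p = 1e-05 for each), which ranked 120 of all 13843 genes. The slope was 0.84 ± 0.14 (SE) log2 units per log2 unit of Cry2 (limma, adjusted p = 1.78e-05). The relation held when the 2 eyes whose Cry2 lay farthest from its median on the log2 scale were left out (r = 0.64). These were the 2 eyes of lowest Cry2, at 124 and 125 CPM, so the highest eyes stayed in. The r of Farp1 was 0.87 in the 12 eyes of the other prefixes and 0.58 in the 39 of the most common prefix. After removal of the first component its r was 0.34, the highest of the 10 most alike named genes.

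The other 9 of these 10 genes had r between 0.60 and 0.63. Crocc encodes rootletin, the protein of the ciliary rootlet, a fibre that anchors cilia including those of photoreceptors. It had the steepest slope, 1.56 ± 0.28 (limma, adjusted p = 2.96e-05), with 178 CPM in the lowest eye, 443 CPM at the median and 1907 CPM in the highest. The eyes of high Crocc were not only those of high Cry2, as the plot of single eyes shows. Cacna1g, a T-type calcium channel gene (55.5, 103 and 289 CPM), and Gramd1b, which encodes a carrier of cholesterol at membrane contacts (37.9, 71.4 and 165 CPM), had slopes of 0.92 ± 0.17 and 0.99 ± 0.17. Slc11a2, a divalent metal transporter gene that takes up iron, ranged less, from 64.9 to 124 CPM, with a slope of 0.41 ± 0.080. The rest were Eif4g1, the scaffold of translation initiation, Akap1, which anchors protein kinase A at mitochondria, St3gal1, a sialyltransferase gene, and Thrap3 and Cwc25, whose products act in mRNA splicing. In all 10 genes r was between 0.46 and 0.58 in the 39 eyes of the most common prefix and between 0.76 and 0.89 in the other 12. With median-of-ratios scaling r was 0.47 to 0.59 and each stayed called (limma, largest adjusted p = 0.00921). With the share of the 100 most abundant genes as a covariate 5 of the 10 were no longer called: the slope was 0.22 for Slc11a2, 0.28 for Eif4g1, 0.36 for St3gal1, 0.16 for Thrap3 and 0.26 for Cwc25 (limma, adjusted p = 0.0672, 0.0571, 0.0516, 0.13 and 0.0836).

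The named gene most opposite to Cry2 was Dstn, which encodes destrin, a protein that severs and depolymerizes actin filaments. Dstn had 116 CPM in the lowest eye, a median of 342 and a highest level of 500 CPM. Its r was -0.57 and its rho -0.50 (permutation p = 1e-05 and 0.00027), which placed it 62nd from the bottom of all genes. The slope was -0.90 ± 0.18 (limma, adjusted p = 9.62e-05). It kept its sign when the same 2 eyes were left out (r = -0.59), in the 12 eyes (-0.73) and in the 39 eyes (-0.55), and r after removal of the first component was 0.056.

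The other 8 opposite genes described here had r between -0.53 and -0.46. Sh3bgr, which encodes a small SH3-binding protein, had the steepest slope, -1.44 ± 0.32, and levels of 4.94, 41.7 and 146 CPM. Its slope was -0.94 in the 39 eyes (limma, adjusted p = 0.0607) and -0.38 with the share of the 100 most abundant genes as a covariate (adjusted p = 0.393). Cbx3, which encodes the heterochromatin protein HP1 gamma (29.6, 119 and 166 CPM), had a slope of -1.03 ± 0.23. Anxa1, a phospholipid-binding annexin known as a mediator of glucocorticoid action (95.1, 360 and 739 CPM), had a slope of -0.85 ± 0.22 (limma, adjusted p = 0.00201). Atf1, a transcription factor gene of the CREB family, had r = -0.53 with a median of 22.8 CPM. Uqcrc2, a core subunit of respiratory complex III, and Mrpl18, of the mitochondrial ribosome, had r = -0.46 and -0.47. Itm2b, a membrane protein gene, and Gtf2f2, a subunit of the general transcription factor TFIIF, each had r = -0.47. All 9 of these opposite genes, Dstn included, stayed called with median-of-ratios scaling (limma, largest adjusted p = 0.03). Sh3bgr and Gtf2f2 were not called in the 39 eyes, and Sh3bgr, Gtf2f2 and Mrpl18 were not called with the share of the 100 most abundant genes as a covariate. In the deposited values without any scaling for depth, where deeper eyes have more counts of nearly every gene, the slopes of all 9 were positive.

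**Figure D4:**
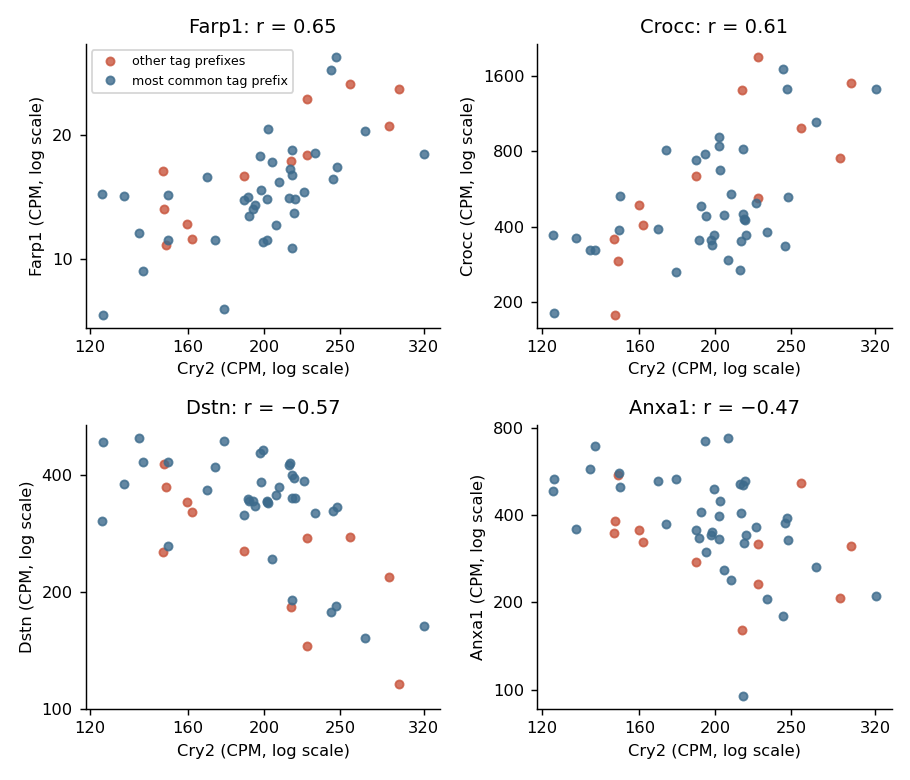
Levels of Farp1, Crocc, Dstn and Anxa1 (vertical axes) against Cry2 (horizontal axes), in CPM on log scales, 1 point per eye. Red points are the 12 eyes of the other tag prefixes and blue points the 39 of the most common prefix; r on the log2(CPM + 1) scale was 0.65, 0.61, -0.57 and -0.47.

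Genes higher with Cry2 spanned more of the genome than other named genes. Of the 706 named genes, 661 (93.6%) had a span from first to last base in the RefSeq annotation of GRCr8. The median span was 47.6 kb in the 144 genes called higher with one, against 20.1 kb in 53 called lower and 21.4 kb in 464 called neither. Across these genes Spearman's rho of r with span was 0.29 in both scalings, a description over genes that share the same 51 libraries.

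No core clock gene could be set beside Cry2. Of 13 core genes sought (Clock, Arntl, Npas2, the Period genes, Cry1 and the nuclear receptor genes of the secondary loop among them) 0 could be named, and of 23 genes that modify the clock or carry its output only Prkaa1 could. Prkaa1 encodes a catalytic subunit of AMP-activated protein kinase, which phosphorylates cryptochromes and marks them for degradation. Its level was 10.7 to 51.3 CPM, with a median of 31.7 CPM, and its r with Cry2 was 0.0074 (permutation p = 0.958; rho = -0.011, permutation p = 0.939; limma, adjusted p = 0.972). Its r was 0.29 in the 12 eyes and -0.075 in the 39 eyes.

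Other lists covered the stress and DNA damage responses and the cell types of the eye. Of 136 listed genes 67 could be named and 62 were tested. Of these 62, 15 were higher with more Cry2 and 1 was lower, shares that stand beside 26.7% and 12.4% over all genes. With median-of-ratios scaling 7 were called, against 29.4% of all genes: Lamb3, Rad54l2, Aebp1, Rtel1, Atp2b2 and Tmprss11f again, and Ndrg2, which was lower. Within the 39 eyes of the most common prefix 2 were called, Lamb3 and Rad54l2, against 15.3% of all genes. With the share of the 100 most abundant genes as a covariate 2 were called, Aebp1 and Tmprss11f, against 12.1% of all genes.

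Among 10 tested genes of the glucocorticoid and stress response, only Sgk1 passed the test, beside 39.1% of all genes. Sgk1, a kinase gene induced by glucocorticoids, had 62.7, 112 and 184 CPM as its lowest, median and highest levels and a slope of 0.35 ± 0.13 (r = 0.36; permutation p = 0.00863; limma, adjusted p = 0.0239). Its r was 0.81 in the 12 eyes of the other prefixes and 0.22 in the 39 of the most common one, and it was not called with median-of-ratios scaling (limma, adjusted p = 0.192). Ddit4, an inhibitor of the growth kinase mTOR that stress induces, had r = 0.28 (limma, adjusted p = 0.0925), and Cdkn1a, the p21 cell cycle inhibitor gene, 0.13. The median r of the list was 0.16, against 0.091 over all genes tested.

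Of the DNA damage genes, 4 of 10 were higher and 0 lower, beside 26.7% and 12.4% of all genes. The median r of the list was 0.13, against 0.091 over all genes tested. Rad54l2, a helicase gene, had 4.93, 14.04 and 30.7 CPM and a slope of 0.96 ± 0.20 (r = 0.55; limma, adjusted p = 0.000213). Rtel1, a helicase gene of telomere maintenance, had r = 0.45 over levels of 10.6 to 70.3 CPM. Lig4, the ligase of double-strand end joining, and Atm, the kinase that double-strand breaks activate, each had r = 0.38. With median-of-ratios scaling Lig4 and Atm were not called (limma, adjusted p = 0.122 and 0.0958). H2ax, the histone variant gene, had r = 0.041 and Parg, which removes poly(ADP-ribose), 0.042.

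The photoreceptor and retina list had the highest median r of the lists with more than 1 tested gene, 0.31. Of its 11 genes 5 were higher and 0 lower, beside 26.7% and 12.4% of all genes. Atp2b2, a plasma membrane calcium pump gene, had 73.1, 118 and 202 CPM (r = 0.48; slope 0.44 ± 0.11; limma, adjusted p = 0.00216). Cplx4, a complexin gene of retinal ribbon synapses, had r = 0.43, Crb1, a polarity gene of the outer limiting membrane, 0.38, Impdh1, of guanine nucleotide synthesis, 0.37 and Grm2, a metabotropic glutamate receptor gene, 0.33. Cplx3, a second complexin gene of ribbon synapses, had r = -0.10. Guca1b, which regulates guanylate cyclase in photoreceptors, had 0.075 and Scg3, the lowest of the list, -0.20. None of these passed the test. Atp2b2 stayed called with median-of-ratios scaling (limma, adjusted p = 0.0396). Cplx4, Crb1, Impdh1 and Grm2 did not (limma, adjusted p = 0.0764, 0.16, 0.126 and 0.373). None of the 5 was called within the 39 eyes of the most common prefix. With median-of-ratios scaling the list's median was 0.17, against -0.015 over all genes. The summed level of its 11 genes was 1704 to 2603 CPM over the eyes. The part of retinal content in the level of Cry2 was not tested.

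Of 7 tested genes listed for Müller glia and astrocytes, 2 were higher and 0 lower, beside 26.7% and 12.4% of all genes. The 2 were the GABA transporter gene Slc6a11 (r = 0.40) and Gpr37l1 (r = 0.32). Ndrg2, S100b and Dio1 had r of -0.32, -0.29 and -0.29 and did not pass in CPM (limma, adjusted p = 0.056, 0.0816 and 0.0751). With median-of-ratios scaling neither Slc6a11 nor Gpr37l1 was called (limma, adjusted p = 0.151 and 0.0649), and the 1 called gene of the list was Ndrg2, which was lower (adjusted p = 0.0156). Glul, the glutamine synthetase gene of Müller cells, was abundant at 1810 to 3636 CPM and had r = 0.065. Of 10 genes of the corneal and conjunctival epithelium, Lamb3, a laminin chain gene of basement membranes, was higher (18.3, 34.6 and 89.9 CPM; r = 0.56; slope 0.89 ± 0.18; limma, adjusted p = 0.000147). Tmprss11f, a serine protease gene, was lower (0.939, 3.32 and 7.35 CPM; r = -0.33; limma, adjusted p = 0.0448). The junction genes Cdh1, Dsg2, Dsc2 and Dsc3 had r of 0.16, 0.26, -0.13 and -0.054 and did not pass. Aebp1 was the 1 of 6 stromal genes that passed (r = 0.45), and Synm was the 1 muscle gene tested and passed (r = 0.32; limma, adjusted p = 0.0488). None of the 2 pigment, 4 myeloid and 1 blood genes passed: Tyr had r = -0.02, Cd68 0.0039 and Hbb -0.0088. No lens gene could be named. A further 5 named list genes lay under 1 CPM at the median and were not tested: Fsd2, Hba-a3, Myl4, Lilrb3a and Omd, which was at 0 in 49 eyes.

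Around Cry2 on chromosome 3, 18 other genes started within 500 kb. The counts of 7 of them were 0 throughout, and 9 reached a median of 1 CPM. Before any removal of components 3 of the 9 were higher with more Cry2 and 0 lower, beside 26.7% and 12.4% of all genes. The 3 were ENSRNOG00000017737 (r = 0.49), ENSRNOG00000006063 (0.48) and ENSRNOG00000007732 (0.41), which starts 24.3 kb from Cry2. With 20 components removed their r was -0.36, -0.28 and 0.0087, in the same order. Of the 9 genes, 6 had r above 0 before this removal and 7 had r below 0 after it. With median-of-ratios scaling 1 was higher, ENSRNOG00000017737, and 1 lower, Syt13, and with the share of the 100 most abundant genes as a covariate 0 were higher and Syt13 was lower. The abundant ENSRNOG00000058478, 39.9 kb away, had 171, 521 and 794 CPM and r = -0.26. After removal of 20 components, 3 of the 9 had an unadjusted p under 0.05 in limma, as did 5.5% of all genes, and 0 had an adjusted p under 0.05, as did 0.00722% of all genes.

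The only named neighbour was Syt13, a synaptotagmin gene of membrane traffic that starts 470 kb from Cry2. Its levels were 79.4, 116 and 142 CPM. Its r was -0.28 (permutation p = 0.0473; rho = -0.29, permutation p = 0.0394; limma, adjusted p = 0.11). With median-of-ratios scaling Syt13 was called lower, with r = -0.49 (limma, adjusted p = 0.0049). After removal of 20 components r was -0.67 and rho -0.53 (limma with 29 residual degrees of freedom, p = 3.15e-05, adjusted p = 0.218). This r was the lowest of all 706 named genes. It was -0.68 when the 2 eyes of lowest Cry2 were left out, -0.85 in the 12 eyes and -0.64 in the 39 eyes. The next lowest was Harbi1, a gene derived from a transposase, which also lies on chromosome 3, 729 kb from Cry2 and outside the window. Harbi1 had 4.59, 11.1 and 16.6 CPM, an r of -0.40 before (limma, adjusted p = 0.0136) and -0.60 after the removal (rho = -0.57; limma, p = 0.000198, adjusted p = 0.548). The unnamed ENSRNOG00000017422, the gene with the highest r before the removal, starts 710 kb from Cry2 and had r = 0.21 after it. Cry2, Syt13 and Harbi1 are each in the study's list of genes with a local genotype association in these eyes. That list was also the source of 778 of the 785 names, so membership does not set these genes apart from other named genes. Whether local genotype had a part in the correlations of Syt13 and Harbi1 with Cry2 was not tested.

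**Figure D5:**
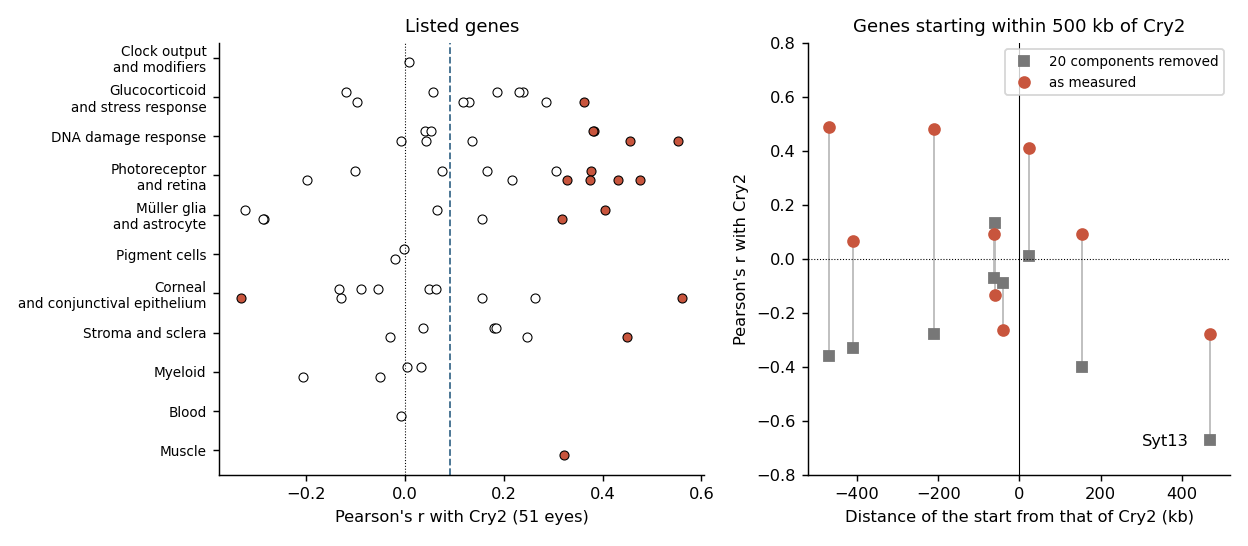
Left, Pearson's r with Cry2 (horizontal axis) of each listed gene by list (vertical axis), filled where the limma adjusted p over all genes was under 0.05; the dashed line is the median of all genes, 0.091. Right, r of the 9 measured genes within 500 kb (vertical axis) against the distance of their starts in kb (horizontal axis), as measured (circles) and with 20 components removed (squares); Syt13 moved to -0.67.

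With 20 components removed, the remaining named genes at the low end were Lzic (r = -0.53), Sec14l4 (-0.51) and Pygl, the liver form of glycogen phosphorylase (-0.51). At the high end were the axon guidance gene Sema3e (0.48), Mrpl44 of the mitochondrial ribosome (0.46), the mitochondrial carrier gene Ucp2 (0.45), Farp1 again (0.44) and the centrosome gene Cep128 (0.44). None of these passed the adjusted test over all genes. The 1 gene that did was the unnamed ENSRNOG00000051258 on chromosome 2, with 0.978, 10.6 and 32.6 CPM as its lowest, median and highest levels. Its r was -0.42 before the removal and -0.72 after it (rho = -0.67), with a slope of -1.02 ± 0.18 (limma, adjusted p = 0.0325). Its r was -0.70 when the 2 eyes of lowest Cry2 were left out.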

How the data were processed

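Polyadenylated RNA of 53 whole eyes, 1 per rat and freed of extraocular muscle, had been sequenced as paired-end reads. Per the study's methods and the submitters' processing notes, reads were aligned to Rnor_6.0 with STAR, libraries were matched to genotypes with GATK, which led to 11 relabelled and 2 removed eyes, and genes were quantified with RSEM; the gene annotation and tool versions are not stated there. The authors deposited log2 values of the RSEM expected count plus 1, with no scaling between eyes. These values were turned back into expected counts, divided by the sum of counts of the eye to give CPM and put on the scale of log2(CPM + 1). The sums were 9109084 to 42146827 (median 16193478), and 3 eyes were above 30000000. Counting intervals cover counting error only.

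Genes whose median reached 1 CPM were fitted on Cry2 with limma 3.58.1 in R 4.3.3 (moderated with a trend on level, Benjamini-Hochberg over 13843 genes). Single correlations were tested by 100000 two-sided permutations of the eyes, except after removal of components, where the limma p is given. No step used the count models that need raw counts, since the unit is log2. Every eye is a separate animal. Expression components are principal components of the inverse-normal values of 20190 genes. The fit was tested on data made with known slopes before use. Slopes of size 1 were called in 79% of 100 genes and slopes of size 2 in 95%. Genes in the made data shared no variation other than that with Cry2. The test therefore cannot show how the fit behaves with the shared component of the real eyes.

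The gene, the lists and the rule were chosen with earlier results of these data known. Named were, by r over 51 eyes, the 10 highest and 10 lowest called genes that could be named, named genes within 500 kb, list members, and the 5 highest and 5 lowest named genes after removal of 20 components; 1 of the 10 lowest is not reported here. Names came from start positions (778 genes from the study's list of genes with a local genotype association, 7 from its loci within 500 bases). Adjusted p-values over the lists or the neighbours alone, which the plan had named, are not given. Alternatives were other scalings, filters, pseudocounts, covariates and subsets of eyes, and leaving out each eye in turn. Of these, the share of the 100 most abundant genes or the first component as a covariate, and the 12 eyes of the other prefixes, were chosen after seeing the data. RefSeq sequences and spans (GRCr8) were matched by symbol; 1 promoter is shown. A comparison of promoter content between gene groups was left out because fewer than 80% of named genes had a promoter entry.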

Additional observations from a re-analysis of the deposited data

How the results depend on the processing

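The level of Cry2 rests on scaling by depth: without it the mean was 11.67 on the log2 scale of counts. With median-of-ratios scaling 2082 genes were higher with Cry2. In unscaled values 11852 genes were higher and 3 lower (11855 in all). Within the 39 eyes of the most common prefix 1531 were higher and 592 lower (2123 in all), and within the other 12 eyes 849 were lower (3520 in all). With the share of the 100 most abundant genes as a covariate 686 were higher and 990 lower (1676 in all). With the first component, or the first 5, as covariates 0 were higher and 0 lower, and with 20 components 0 were higher and 1 lower. Without each eye in turn the counts were 3153 to 3830 higher, 1306 to 1883 lower and 4521 to 5628 in all. Of the listed genes, 16 were called in CPM, 7 with median-of-ratios scaling, 56 in unscaled values, 2 in the 39 eyes and 0 with 5 or 20 components. Of the 11 relations with library measures, 2 passed by Pearson's r in CPM and 1 with median-of-ratios scaling or in the 39 eyes. The other alternatives left each count within 1.5 times its value in CPM, and the neighbours stayed at 0 after 20 components in every alternative run.

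Of 39 named slopes that passed in CPM, 28 kept their call with median-of-ratios scaling, 20 in the 39 eyes and 15 with the share of the 100 most abundant genes as a covariate, and 0 reversed. Unscaled, 12 negative slopes were positive: Dstn 0.32, Atf1 0.37, Cbx3 0.24, Sh3bgr 0.31, Mrpl18 0.41, Anxa1 0.30, Itm2b 0.45, Gtf2f2 0.43, Uqcrc2 0.49, Harbi1 0.44, Pygl 0.50 and Tmprss11f 0.50. With the first component as a covariate none passed and 6 changed sign: Cacna1g -0.0012, Dstn 0.0545, Cbx3 0.16, Itm2b 0.031, Uqcrc2 0.14 and Impdh1 -0.037. With 5 components none passed and 8 changed sign: Cbx3 0.067, Mrpl18 0.001, Uqcrc2 0.052, Slc6a11 -0.0029, Grm2 -0.015, Synm -0.064, Cplx4 -0.028 and Atp2b2 -0.086. With 20 components none passed and 11 changed sign: St3gal1 -0.074, Cbx3 0.060, Itm2b 0.0073, Tmprss11f 0.12, Slc6a11 -0.034, Grm2 -0.028, Rad54l2 -0.030, Synm -0.070, Lig4 -0.0076, Cplx4 -0.016 and Impdh1 -0.050. The cause of these changes was not tested. No paired analysis was possible because the eyes form 1 group with 1 eye per rat.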
